A study of Mus musculus with 46 samples.

Results

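The response of mouse bone marrow-derived macrophages (BMDM) to 27-hydroxycholesterol (27HC) given alone was measured over all genes by bulk RNA sequencing. The comparison rests on the 5 libraries labelled 27HC and the 6 labelled Vehicle, 11 of the 46 libraries of the series, chosen by their treatment label alone and not by any measured value. BMDM are macrophages grown in culture from bone marrow cells. In the series they received ligands that act on the liver X receptors (LXR) or on the estrogen receptors (ER), singly and in combination. Libraries with GW3965, a synthetic LXR agonist (n = 5), and with estradiol (E2), the natural ER ligand (n = 5), are set beside 27HC where they show in what it differed. Every group used here was of the same cell type and is described by its compound alone, and the labels name no strain, sex, age, dose or time of exposure. The labels do not tell whether replicate libraries stem from different animals, so the p-values reflect the spread between libraries, which may be technical.

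27HC is an oxysterol, made from cholesterol by the mitochondrial enzyme that Cyp27a1 encodes. Oxysterols bind LXR, which switch on genes that carry cholesterol out of macrophages, and they bind the Insig proteins, which then hold the transcription factor SREBP2 in the endoplasmic reticulum and so lower the genes of cholesterol synthesis and uptake. 27HC is also a ligand of the estrogen receptors, and macrophages keep a basal level of interferon-stimulated genes through promoter elements bound by STAT and IRF proteins.

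In several of the gene groups that moved, some promoters hold short elements. The stretches around these are shown because the results on interferon, chaperone and sterol genes return to them. Sequences are from RefSeq (GRCm38.p6), read 5′ to 3′ on the strand of the gene within 250 bases before its start, and 10241 of 13568 genes with a symbol among those tested had such a stretch. Motifs were searched on both strands, and capitals mark every match, which describes letters and not binding. The interferon-stimulated response element was searched as GAAANNGAAA. Genes of antiviral proteins (Ifit1, Isg15), of interferon-induced GTPases (Igtp, Irgm2), of the p200 family (Ifi211) and of MHC class I (B2m) held it.
Ifit1: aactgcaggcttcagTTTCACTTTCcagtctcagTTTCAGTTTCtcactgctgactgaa
Isg15: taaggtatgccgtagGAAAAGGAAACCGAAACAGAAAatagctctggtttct
Igtp: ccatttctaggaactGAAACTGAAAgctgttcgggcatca
Irgm2: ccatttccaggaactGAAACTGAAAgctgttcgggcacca
Ifi211: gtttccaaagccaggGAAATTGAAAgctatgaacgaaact
B2m: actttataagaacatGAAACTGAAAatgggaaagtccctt
The stretches lie at chr19:34640770-34640828 (plus strand, Ifit1), chr4:156200860-156200911 (minus strand, Isg15), chr11:58199507-58199546 (plus strand, Igtp), chr11:58214898-58214937 (plus strand, Irgm2), chr1:173913059-173913098 (minus strand, Ifi211) and chr2:122147533-122147572 (plus strand, B2m). In Isg15 3 matches overlap in 1 run, and Ifit1 holds 2 separate ones.

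The endoplasmic reticulum stress response element was searched as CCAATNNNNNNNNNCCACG, in which the first 5 letters are also a CCAAT box, and is shown for chaperone genes. The sterol regulatory element was searched as TCACNCCAC and is shown for Hmgcs1, an early enzyme of cholesterol synthesis.
Pdia6: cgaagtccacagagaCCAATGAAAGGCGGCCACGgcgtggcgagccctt
Dnajc3: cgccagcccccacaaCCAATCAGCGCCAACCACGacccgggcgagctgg
Calr: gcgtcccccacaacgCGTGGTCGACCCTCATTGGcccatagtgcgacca
Hmgcs1: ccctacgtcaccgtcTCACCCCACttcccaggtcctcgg
These stretches lie at chr12:17266476-17266524 (plus strand, Pdia6), chr14:118937812-118937860 (plus strand, Dnajc3), chr8:84847060-84847108 (minus strand, Calr) and chr13:119690199-119690237 (plus strand, Hmgcs1).

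Between 27HC and Vehicle, 40.5% of 13765 genes tested were called, meaning an adjusted p below 0.05 in edgeR's quasi-likelihood test, adjusted by Benjamini-Hochberg over all of them. With 27HC 2800 genes were higher (20.3%) and 2778 lower (20.2%), so near equal numbers moved each way and the median log2 fold change over all genes was -0.0030. Large changes were mostly decreases: 389 called genes were at least 2-fold lower (2.83%) and 123 at least 2-fold higher (0.894%). Many calls were small, since 1747 of the higher and 1233 of the lower genes changed by less than 1.25-fold. The 27HC libraries all lay on one side of all Vehicle libraries for 25.6% of genes. Counts of called genes in each group below are to be read beside these shares over all genes. Levels below are CPM (counts scaled to 1000000 per library after TMM scaling). Log2 fold changes are 27HC over Vehicle with a standard error, and adjusted p-values are from that same test. The standard error was worked out from the fold change and the F statistic of the test. It rests on the spread estimated over all libraries fitted, not on the 27HC and Vehicle libraries alone. Levels are not compared between genes, since the table gives no transcript lengths.

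Total estimated counts ran from 21218216 to 23755687 in the 27HC libraries and from 19935444 to 26037620 in the Vehicle libraries. The first principal component of the 11 libraries held 36% of their variance and separated the 2 groups, with scores of 23 to 31 for 27HC and -24 to -21 for Vehicle. Mitochondrially encoded transcripts took 1.80% to 2.05% of the counts with 27HC and 1.43% to 1.68% with Vehicle. Leaving them out before scaling gave 5568 calls, 5511 of them among the 5578 of the full table. Macrophage markers were high in both groups, with Csf1r, the receptor of the growth factor M-CSF, at 2279 ± 67.6 CPM with 27HC (SD, n = 5) and 2934 ± 77.7 CPM with Vehicle (SD, n = 6). Bulk RNA cannot tell fewer cells of a type from less RNA per cell, which holds for every gene below.

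**Figure D1:**
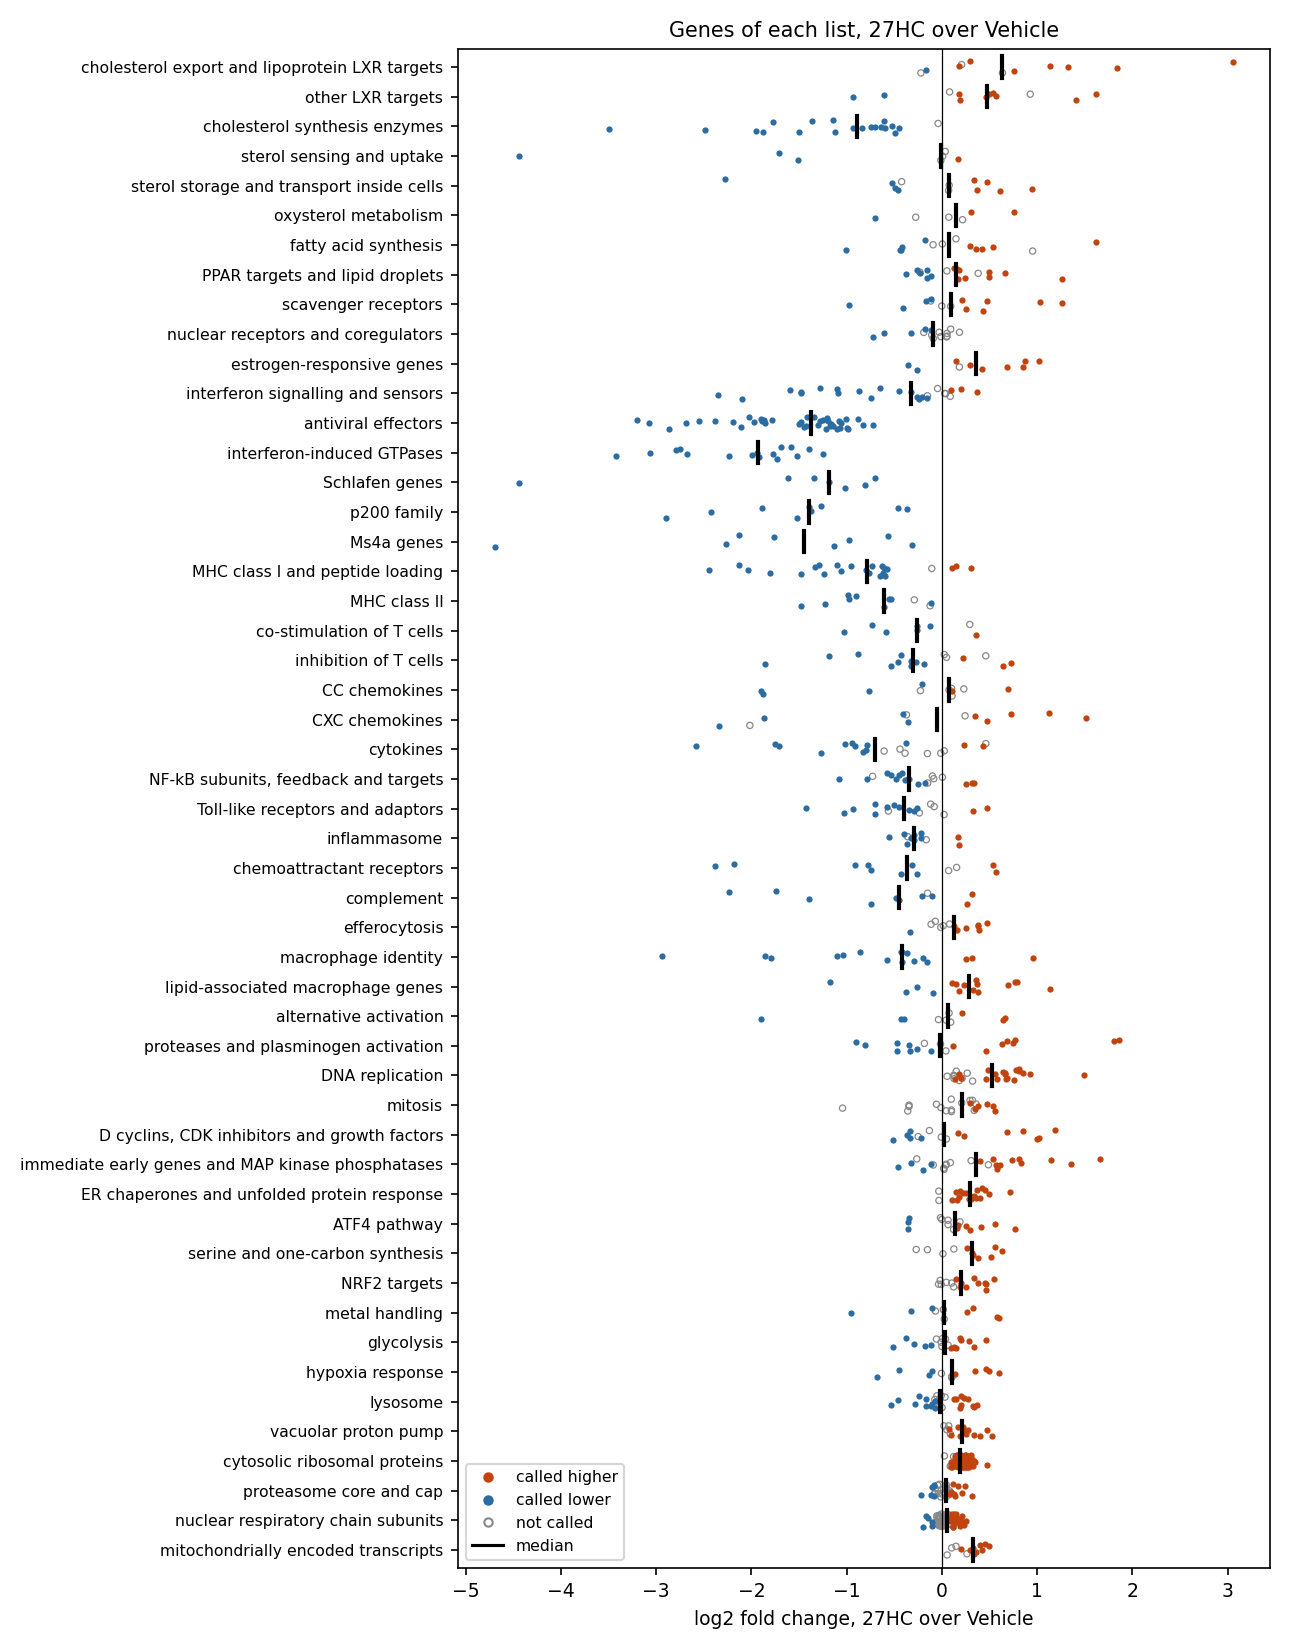
Log2 fold change (27HC over Vehicle) of each tested gene, 1 point per gene and 1 row per gene group, filled where called and open where not, with the group median as a bar. All points of the antiviral, GTPase, Schlafen, p200 and Ms4a groups lie left of 0, and 69 of 76 ribosomal protein genes are filled to the right of it.

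The genes of cholesterol export were higher with 27HC. Of 11 export and lipoprotein genes that LXR are known to control, 7 rose and 1 fell (Smpdl3a), with a median log2 fold change of 0.64. Abcg1, which hands cholesterol to HDL, stood at 365, 337, 331, 353 and 327 CPM in the 27HC libraries and at 35.2 (lowest), 38.4 (median) and 52.9 CPM (highest) in the Vehicle libraries. All 5 27HC libraries lay above every Vehicle library, and the log2 fold change was 3.05 ± 0.072 (adjusted p = 2.28e-30). Abca1, which loads cholesterol onto apolipoprotein A-I, had 979.5, 1045, 903, 956 and 1058 CPM with 27HC, against 346 (lowest), 397 (median) and 430.1 CPM (highest) with Vehicle. The groups did not overlap, and the log2 fold change was 1.33 ± 0.065 (adjusted p = 4.49e-20), smaller than that of Abcg1. Mylip, which encodes a ubiquitin ligase (chr13:45389742-45412022, plus strand), had 131, 126, 122, 123 and 125 CPM with 27HC and 32.5 (lowest), 35.9 (median) and 37.3 CPM (highest) with Vehicle. It too lay apart in all libraries, at a log2 fold change of 1.83 ± 0.037 (adjusted p = 2.25e-33). Lpl, lipoprotein lipase, rose by 1.14 ± 0.048, Arl4c, which brings ABCA1 to the cell surface, by 0.75 ± 0.020, and Apoe, with overlapping libraries, by 0.18 ± 0.056 on the log2 scale.

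Of 12 other LXR targets 8 rose and 2 fell, Nr1h3 among them, with a median of 0.48. Scd2, a fatty acid desaturase, stood at 156, 173, 170.0, 162 and 176 CPM with 27HC and at 51.5 (lowest), 54.4 (median) and 58.9 CPM (highest) with Vehicle. Every 27HC library lay above every Vehicle library, a rise of 1.61 ± 0.041 on the log2 scale. Eepd1, which helps to keep ABCA1 at the membrane, rose by 1.41 ± 0.051, and Lpcat3, which builds polyunsaturated phospholipids, by 0.57 ± 0.035. Srebf1, whose product drives fatty acid synthesis, had 78.8, 79.5, 72.7, 83.8 and 82.3 CPM with 27HC and 66.1 (lowest), 70.0 (median) and 74.8 CPM (highest) with Vehicle. Those ranges overlap, and its log2 fold change of 0.19 ± 0.049 (adjusted p = 0.00184) was small beside that of Scd2.

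Some genes of sterol sensing and uptake fell at least 2-fold, and the others rose slightly or were not called. Insig1, which retains SREBP2 and is itself a target of it, had 21.1, 21.7, 22.2, 22.2 and 20.5 CPM with 27HC, against 67.1 (lowest), 70.9 (median) and 75.0 CPM (highest) with Vehicle. It fell by 1.72 ± 0.036 on the log2 scale with no overlap. Srebf2, the gene of SREBP2, changed by -1.51 ± 0.041 (adjusted p = 2.80e-29). Among 7 genes of sterol sensing and uptake 3 fell, Insig1 and Srebf2 among them, Mbtps2 rose slightly (0.17 ± 0.066), and Scap (0.035 ± 0.10), Insig2 and Mbtps1 were not called.

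Of 20 cholesterol synthesis enzymes 19 fell with 27HC, 9 of them at least 2-fold, and 0 rose, with a median log2 fold change of -0.89. Ebp was the exception, at -0.04 ± 0.060 (adjusted p = 0.645). The fall ran through the pathway: early steps such as Hmgcs1 (-1.37 ± 0.038), the middle step of Sqle, squalene epoxidase, and the later step of Tm7sf2, a sterol reductase. Sqle stood at 12.8, 12.3, 13.7, 12.2 and 11.8 CPM with 27HC and at 45.7 (lowest), 49.1 (median) and 50.4 CPM (highest) with Vehicle, with no overlap and a log2 fold change of -1.95 ± 0.054. Idi1, an isomerase, had 9.37, 10.4, 10.7, 10.2 and 9.59 CPM in the 27HC libraries and 51.6 (lowest), 56.4 (median) and 61.0 CPM (highest) in the Vehicle libraries, again apart (-2.49 ± 0.056). Tm7sf2 changed least among those called, by -0.45 ± 0.099, and Lss, which closes the sterol rings, was the only called enzyme whose libraries overlapped (-0.60 ± 0.16). A CCAAT box, searched as CCAAT, was in 14 of the 15 promoter stretches of this group (93.3%) and in 40.6% of all. The box was not particular to this group, at 88.9% for sterol storage and transport, 88.2% for mitosis and 0% for CC chemokines. The sterol regulatory element shown above was in 1 of 15 (Hmgcs1) and in 1.15% of all.

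Inside the cell, 5 of 12 genes of sterol storage and transport rose and 4 fell. Stard4, a carrier of free cholesterol, had 7.19, 8.37, 7.16, 7.89 and 9.31 CPM with 27HC, against 35.7 (lowest), 39.0 (median) and 40.7 CPM (highest) with Vehicle. Stard4 was thus lower in each 27HC library than in any Vehicle library (-2.27 ± 0.058). In the opposite direction Npc1, which exports cholesterol from lysosomes, rose by 0.34 ± 0.022, and Lipa, the lysosomal acid lipase, by 0.37 ± 0.027.

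Fatty acid genes were split. Of 14, 5 rose and 5 fell, with a median of 0.08. Beside Scd2, Elovl5, an elongase of polyunsaturated fatty acids, rose by 0.30 ± 0.033, and Fasn, fatty acid synthase, by 0.42 ± 0.11 (adjusted p = 0.00169) with overlapping libraries. The desaturases of polyunsaturated fatty acids fell, Fads2 by 1.01 ± 0.11 and Fads1 by 0.42 ± 0.027 on the log2 scale. Among 18 PPAR targets and lipid droplet genes 9 rose and 6 fell. Cd36, a scavenger receptor that takes up oxidised LDL, rose by 1.26 ± 0.026, and Pparg, the nuclear receptor of fatty acids, by 0.66 ± 0.059. Of 13 scavenger receptors 6 rose and 4 fell. Msr1, scavenger receptor A, rose by 0.43 ± 0.032, and Marco, which binds bacteria, fell by 0.98 ± 0.079 on the log2 scale.

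**Figure D2:**
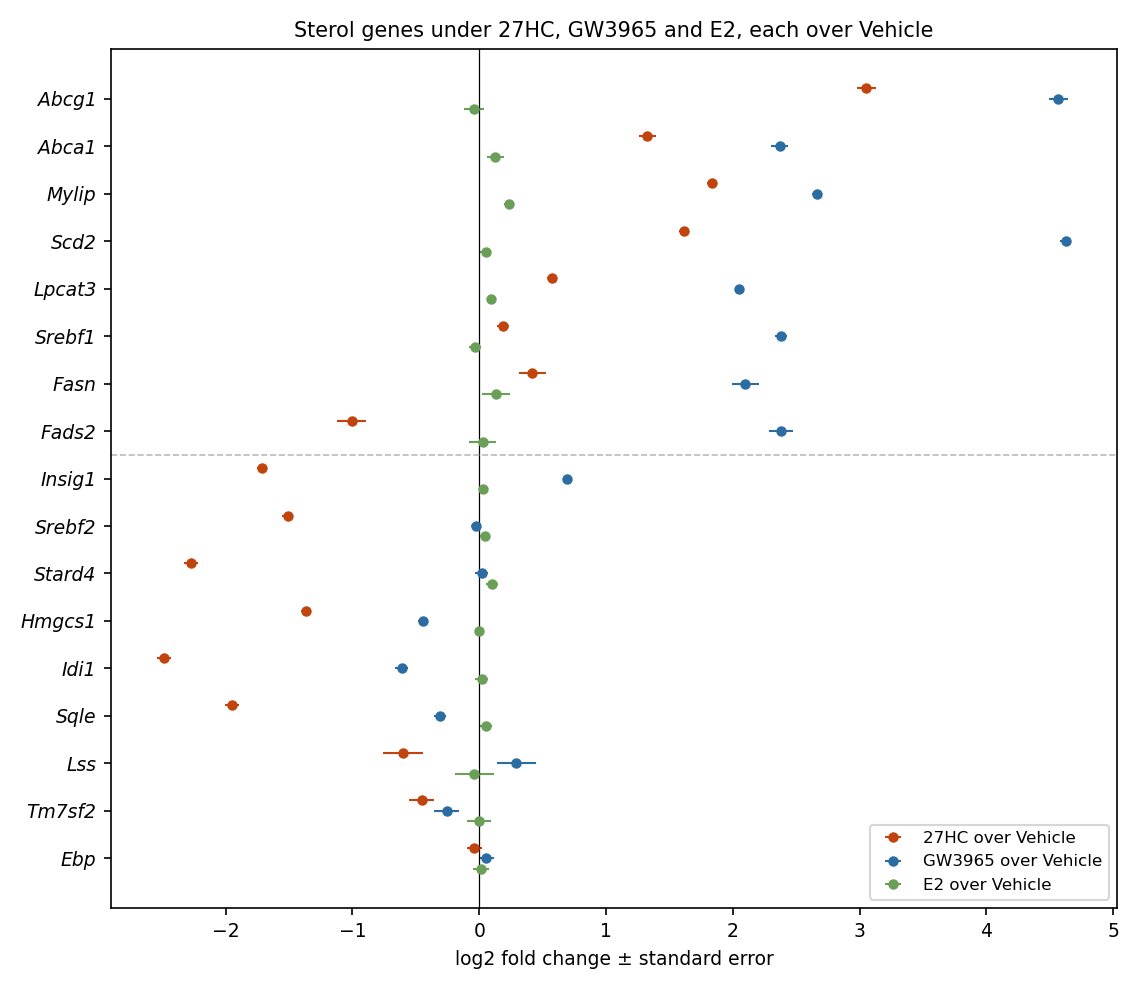
Log2 fold change with its standard error of LXR targets and fatty acid genes (above the dashed line) and of sterol sensing, transport and synthesis genes (below it) with 27HC, GW3965 and E2, each over the same Vehicle libraries. With 27HC the genes below the line lie left of 0, Idi1 at -2.49, and among those above it Fads2 lies left and the others right.

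The receptors themselves were not higher. Nr1h3 (LXR alpha) stood at 46.4, 45.6, 48.8, 49.9 and 42.9 CPM with 27HC and at 66.0 (lowest), 72.0 (median) and 74.5 CPM (highest) with Vehicle. All 27HC libraries lay below all Vehicle libraries (-0.61 ± 0.051, adjusted p = 3.21e-13). Nr1h2 (LXR beta) had a log2 fold change of -0.029 ± 0.034 (adjusted p = 0.533). Esr1 (ER alpha) had 3.61, 3.74, 4.17, 3.29 and 3.89 CPM with 27HC, against 5.79 (lowest), 6.21 (median) and 6.63 CPM (highest) with Vehicle. It was lower without overlap as well (-0.73 ± 0.10, adjusted p = 1.83e-07), at a low level in both groups. Esr2 (ER beta) had 0 to 6 counts per 27HC library and 0 to 4 per Vehicle library and was not tested. Of 15 nuclear receptors and coregulators 5 fell and 0 rose, so 33.3% were called, fewer than the 40.5% of all genes.

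Of 6 genes tested that make or handle oxysterols 2 rose and 1 fell. Cyp27a1, the enzyme that makes 27HC, had 8.24, 7.06, 7.94, 7.30 and 7.23 CPM with 27HC and 10.7 (lowest), 12.5 (median) and 13.7 CPM (highest) with Vehicle. The groups did not overlap, and it was lower with 27HC (-0.70 ± 0.073). Gpr183, a receptor that guides immune cells along oxysterol gradients, rose by 0.76 ± 0.058. Cyp7b1, which hydroxylates 27HC further, had a log2 fold change of 0.22 ± 0.35 (adjusted p = 0.665), and Ch25h, which makes 25-hydroxycholesterol, of -0.28 ± 0.18 (adjusted p = 0.246). Of 10 estrogen-responsive genes 7 rose and 2 fell (Cxcl12 and Fhl2), among them Igf1, a growth factor, at 0.69 ± 0.033. E2 itself changed 2 of these 10 upward and 1 downward relative to the same Vehicle libraries, where 4.88% of all genes were called, 2.27% higher and 2.62% lower. GW3965, the LXR agonist, had 8 of the 10 higher than Vehicle and 2 lower, where 22.8% of all genes were higher and 21.5% lower. The median over the 10 was 0.36 with 27HC and 0.35 with GW3965. Greb1, Pgr, Pdzk1 and Areg, also listed as estrogen-responsive, had too few counts to test.

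Genes of the interferon response were among the lowest of the comparison. All 40 antiviral effectors tested fell with 27HC, 35 of them at least 2-fold, with a median log2 fold change of -1.38 and a range of -3.20 to -0.73. Ifit1, which binds foreign RNA, had 18.1, 26.2, 22.3, 23.1 and 17.5 CPM with 27HC, against 117 (lowest), 124 (median) and 137 CPM (highest) with Vehicle. The groups were far apart, with a log2 fold change of -2.54 ± 0.064 (adjusted p = 5.09e-30). Isg15, a ubiquitin-like protein gene, fell by 2.19 ± 0.062, Oas3, which senses double-stranded RNA, by 1.50 ± 0.040, and Rsad2 (viperin) by 1.86 ± 0.054 on the log2 scale. Adar, an RNA editing enzyme whose RNA is only in part under interferon control, changed by -0.83 ± 0.040.

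Upstream, 17 of 25 genes of interferon signalling and sensing fell and 3 rose. Irf7, which amplifies type I interferon, had 256, 310.5, 275, 280.1 and 245 CPM with 27HC, against 1113 (lowest), 1186 (median) and 1202 CPM (highest) with Vehicle. The groups did not overlap (-2.1 ± 0.044). The 3 that rose were Irf8 (0.37 ± 0.025), Irf5 (0.20 ± 0.029) and Ifnar1, a receptor chain (0.10 ± 0.033). Irf3 had a log2 fold change of 0.04 ± 0.056 (adjusted p = 0.615), and Ifnb1, interferon beta, had too few counts to test.

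The interferon-induced GTPases, which coat and break the vacuoles of intracellular microbes, all fell: 16 of 16, each at least 2-fold, with a median of -1.93. Irgm1 had 96.9, 112, 102, 102 and 92.9 CPM with 27HC, against 232 (lowest), 237 (median) and 249.8 CPM (highest) with Vehicle. No 27HC library reached the Vehicle range (-1.24 ± 0.032). Others were Ifi47 (-1.94 ± 0.047), Igtp (-1.53 ± 0.043) and Gbp2 (-1.77 ± 0.066). All 9 p200 family genes tested, which encode DNA-binding proteins, fell with a median of -1.39, including Ifi204 (-1.27 ± 0.035) and the inflammasome sensor Aim2 (-0.36 ± 0.078).

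The 7 Schlafen genes fell as well, with a median of -1.19. Slfn1 had 0.504, 0.701, 0.608, 0.296 and 0.278 CPM with 27HC and 9.54 (lowest), 10.6 (median) and 11 CPM (highest) with Vehicle, and was below 1 CPM in every 27HC library (-4.44 ± 0.13). The table holds 3 rows with the estimated counts of Slfn1 and 2 with those of Slfn8, so their levels may be split between rows, with the same fold change in each. Slfn2, which limits T cell and macrophage activation in mice, changed by -0.70 ± 0.030. The 8 Ms4a genes tested, which encode membrane proteins with 4 spans, also fell, with a median of -1.45. Ms4a4c (chr19:11404770-11427246, plus strand) stood at 1.60, 3.69, 3, 2.03 and 2.92 CPM with 27HC and at 63.1 (lowest), 67.6 (median) and 72.3 CPM (highest) with Vehicle. It had the lowest log2 fold change of the genes given here, -4.69 ± 0.14, and Ms4a6c (-1.77 ± 0.039) and Ms4a7 (-0.56 ± 0.031) also fell. The Ifit, Gbp, Tgtp, Slfn, Ms4a, Oas1 and H2-Q families hold close copies whose reads kallisto may share out, so values of single members are uncertain.

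The element shown above was frequent in these promoters. GAAANNGAAA lay in the 250 bases before the start of 9 of 10 GTPase genes with a stretch (90%), 6 of 8 p200 genes (75%), 14 of 32 antiviral genes (43.8%) and 3 of 7 Schlafen genes (42.9%), against 3.47% of all 10241. Of the 7 Ms4a genes with a stretch 0 held it. The element was in 3 of 20 genes of MHC class I and peptide loading (15%) and in 3 of 21 of interferon signalling and sensing (14.3%). It was not confined to groups that fell, being in 6 of 56 ribosomal protein genes (10.7%), a group with 69 genes higher and 0 lower. Over all called genes its share followed the size of the decrease. It was in 34% of 47 genes at least 4-fold lower with 27HC, 20.6% of 214 between 2-fold and 4-fold lower, 6.58% of 441 between 1.4-fold and 2-fold lower and 3.2% of 1407 lower by less. Among genes at least 2-fold higher it was in 3 of 86 (3.49%), and among genes not called in 2.73% of 5977. The same genes define the groups and the decrease, so these shares are descriptions, and a gene without the letters in this stretch may hold them elsewhere.

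**Figure D3:**
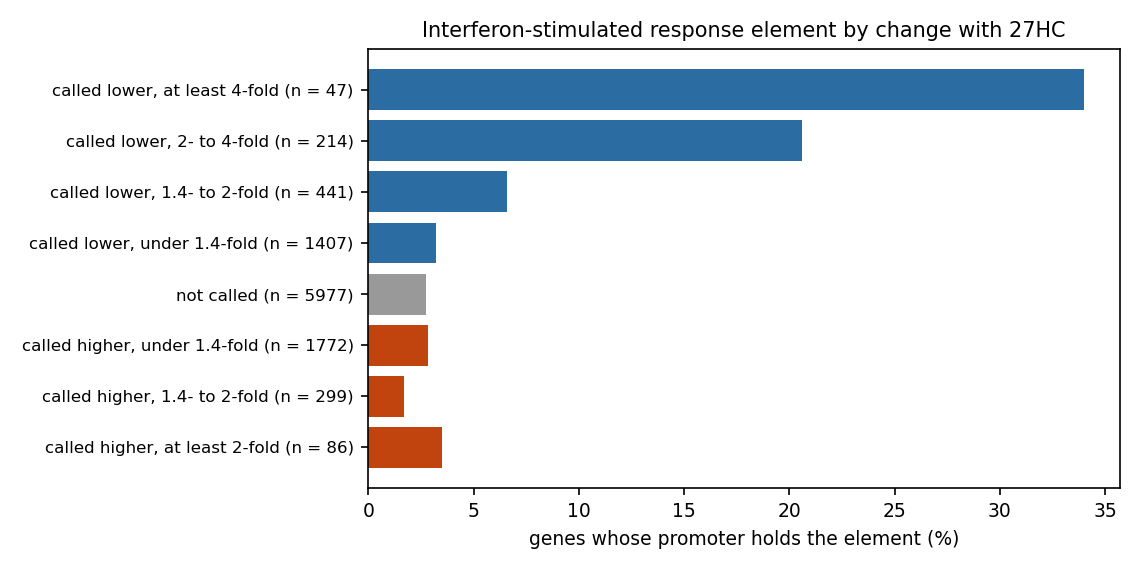
Share of genes (percent) whose promoter stretch of 250 bases holds the interferon-stimulated response element, by change with 27HC, from called at least 4-fold lower at the top to called at least 2-fold higher at the bottom. The bars shorten from 34% at the top to 2.73% among genes not called. Among genes called higher they are at 2.82% (under 1.4-fold), 1.67% (1.4- to 2-fold) and 3.49% (at least 2-fold).

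Genes that present antigen were lower. Of 24 genes of MHC class I and peptide loading 20 fell, 10 at least 2-fold, and 3 rose, with a median of -0.78. H2-K1, a class I heavy chain, had 1447, 1461, 1506, 1467 and 1367 CPM with 27HC and 3273 (lowest), 3431 (median) and 3535 CPM (highest) with Vehicle. The 27HC libraries all lay below the Vehicle libraries (-1.24 ± 0.028, adjusted p = 1.27e-31). B2m, the light chain, fell by 0.76 ± 0.027, and Tap1, which pumps peptides into the endoplasmic reticulum, by 1.29 ± 0.049. The inducible proteasome subunits Psmb8 (-0.80 ± 0.038), Psmb9 (-1.05 ± 0.068) and Psmb10 (-0.60 ± 0.045) fell too, while of 31 constitutive proteasome genes 10 rose and 6 fell with a median of 0.04. The 3 class I and loading genes that rose, Calr, Canx and Pdia3, are general chaperones of the endoplasmic reticulum.

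Of 11 MHC class II genes 9 fell and 0 rose, with a median of -0.61. H2-Ab1, a class II beta chain, had 33.3, 31.6, 33.5, 32.6 and 29.2 CPM with 27HC, against 59.2 (lowest), 62.3 (median) and 69.9 CPM (highest) with Vehicle. The 2 ranges were separate (-0.98 ± 0.042). Cd74, the invariant chain, had 139, 121, 138, 140.1 and 132 CPM with 27HC, against 192 (lowest), 203 (median) and 218 CPM (highest) with Vehicle, and was apart as well (-0.61 ± 0.036). Ciita, the master regulator of class II, changed by -1.23 ± 0.48 (adjusted p = 0.0367) with overlapping libraries. Of 8 co-stimulatory genes 6 fell and 1 rose (Tnfsf9, 4-1BB ligand), including Icosl (-1.02 ± 0.071), Cd86 (-0.73 ± 0.065) and Cd40 (-0.26 ± 0.087). Among 16 genes that hold T cells back 10 fell and 3 rose. Cd274 (PD-L1) changed by -0.33 ± 0.055 (adjusted p = 4.25e-06) with some overlap, and Havcr2 (Tim-3) rose by 0.72 ± 0.062.

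Inflammatory genes fell in some groups and were split in others. Of 20 cytokine genes 11 fell and 2 rose (Il1rn and Tnf), with a median of -0.70. Il1b stood at 28.5, 35.4, 26.1, 28.6 and 20.2 CPM with 27HC and at 139.7 (lowest), 154 (median) and 205 CPM (highest) with Vehicle. Although the libraries of each group spread widely, they did not overlap (-2.58 ± 0.15, adjusted p = 1.42e-17). Ebi3, a subunit of interleukins 27 and 35, changed by -0.94 ± 0.047, Il18 by -0.80 ± 0.095 and Csf1, the gene of M-CSF, by -0.37 ± 0.042. Il1rn, the interleukin 1 receptor antagonist, rose by 0.43 ± 0.063, and Tnf by 0.24 ± 0.065 (adjusted p = 0.00278) with overlapping libraries. Il1a (-0.39 ± 0.17) and Il10 (0.46 ± 0.20) were not called.

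Chemokines went both ways. Of 11 CC chemokines 2 rose and 4 fell, and of 12 CXC chemokines 5 rose and 4 fell. Ccl5, which draws T cells, had 112, 119, 124, 118 and 103 CPM with 27HC and 395 (lowest), 424 (median) and 449 CPM (highest) with Vehicle, apart in all libraries (-1.88 ± 0.046). The interferon-induced Cxcl10 (-1.86 ± 0.14) and Cxcl9 (-2.34 ± 0.22) fell with it. On the other side Pf4, platelet factor 4, had 666, 668, 739, 671 and 633 CPM with 27HC, against 296 (lowest), 307 (median) and 331 CPM (highest) with Vehicle. All its 27HC libraries lay above all Vehicle libraries (1.12 ± 0.039). Its neighbour in the family Ppbp rose too (1.51 ± 0.15), while Ccl4 (0.70 ± 0.053) and the neutrophil attractant Cxcl2 (0.72 ± 0.096) rose less. Ccl2, which draws monocytes, had a log2 fold change of 0.23 ± 0.096 (adjusted p = 0.0541). The median of the CXC group was -0.06 here and 0.293 when the 11 libraries were fitted alone, and that of the CC group, 0.08, was -0.0406 without Vehicle replicate 1 and -0.0291 without Vehicle replicate 5.

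Of 20 genes of NF-kB subunits, feedback and targets 12 fell and 3 rose, and of 18 Toll-like receptors and adaptors 11 fell and 2 rose. Nfkb2 changed by -0.45 ± 0.034, Irak3, a brake on Toll-like receptor signals, by -1.43 ± 0.062 and Tlr2 by -0.70 ± 0.038, against 0.47 ± 0.031 for Tlr13, a sensor of bacterial RNA. Tlr4, the endotoxin receptor, had a log2 fold change of 0.023 ± 0.043 (adjusted p = 0.717). Of 12 inflammasome genes 8 fell and 2 rose, with Nlrp3 at 0.17 ± 0.045 and Casp1 at -0.40 ± 0.034. Of 12 chemoattractant receptors 8 fell and 2 rose. The formyl peptide receptors, which sense bacterial products, fell most, Fpr2 by 2.38 ± 0.10 and Fpr1 by 2.18 ± 0.098 on the log2 scale, whereas C5ar1 (0.57 ± 0.032) and Ccr1 (0.53 ± 0.067) rose. Of 11 complement genes 8 fell and 2 rose, Cfp among them, including Cfb, a factor of the alternative pathway (-2.23 ± 0.090), C3 (-1.4 ± 0.062) and C1qa (-0.48 ± 0.029).

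Macrophage identity genes were mostly lower, 14 of 17, with 3 higher and a median of -0.42. Adgre1, which encodes F4/80, stood at 1992, 2105, 2028, 2036 and 2025 CPM with 27HC and at 4183 (lowest), 4347 (median) and 4551 CPM (highest) with Vehicle. All 27HC libraries were below all Vehicle libraries (-1.10 ± 0.031). Siglec1, a receptor of sialic acids that interferon raises, fell by 1.86 ± 0.059, and the antibody receptors Fcgr4 and Fcgr1 by 1.79 ± 0.051 and 0.86 ± 0.040 on the log2 scale. Csf1r changed by -0.36 ± 0.021. Maf, a transcription factor of mature macrophages, changed by -0.58 ± 0.040.

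Genes described in lipid-laden macrophages went the other way, with 12 of 16 higher, 4 lower and a median of 0.28. Lgals3, galectin 3, had 3100, 2934, 3216, 3009 and 2989 CPM with 27HC and 1721 (lowest), 1766 (median) and 1826 CPM (highest) with Vehicle. It lay apart in all libraries (0.79 ± 0.029). Others that rose were Spp1, osteopontin (0.69 ± 0.032), Cd9 (0.76 ± 0.033), Gpnmb (0.38 ± 0.019) and Trem2, a lipid receptor whose counts stand in more than 1 row (0.37 ± 0.041). The 4 that fell were Clec7a, a receptor of fungal glucans (-0.38 ± 0.031), Cst7 (-1.17 ± 0.10), Fabp5 and Tyrobp. Of 13 genes of efferocytosis, the uptake of dying cells, 7 rose and 1 fell, Axl (-0.33 ± 0.048), while Mertk had a log2 fold change of 0.081 ± 0.044 (adjusted p = 0.148). Of 10 genes of alternative activation 3 rose and 3 fell, with Tgm2 at 0.64 ± 0.029 and Il4ra at -0.40 ± 0.027.

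Proteases, their inhibitors and the plasminogen system were split evenly, with 8 of 19 higher and 8 lower. Mmp12, macrophage elastase, had 593, 596, 628, 608 and 635 CPM with 27HC, against 165 (lowest), 171 (median) and 205 CPM (highest) with Vehicle, and Plau, urokinase, had 241, 212, 245, 236 and 254 CPM with 27HC, against 57.2 (lowest), 65.8 (median) and 73.0 CPM (highest) with Vehicle. Both rose without overlap (1.80 ± 0.036 for Mmp12 and 1.86 ± 0.046 for Plau), and Plaur, the urokinase receptor, rose by 0.68 ± 0.044. Timp3, an inhibitor of metalloproteases, had 159, 188, 166, 159.7 and 165 CPM with 27HC and 282 (lowest), 309 (median) and 340.3 CPM (highest) with Vehicle. All its 27HC libraries lay below all Vehicle libraries (-0.90 ± 0.047). Mmp14 (-0.81 ± 0.046), Timp2 (-0.33 ± 0.028) and Mmp9 (-0.47 ± 0.072) fell as well.

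**Figure D4:**
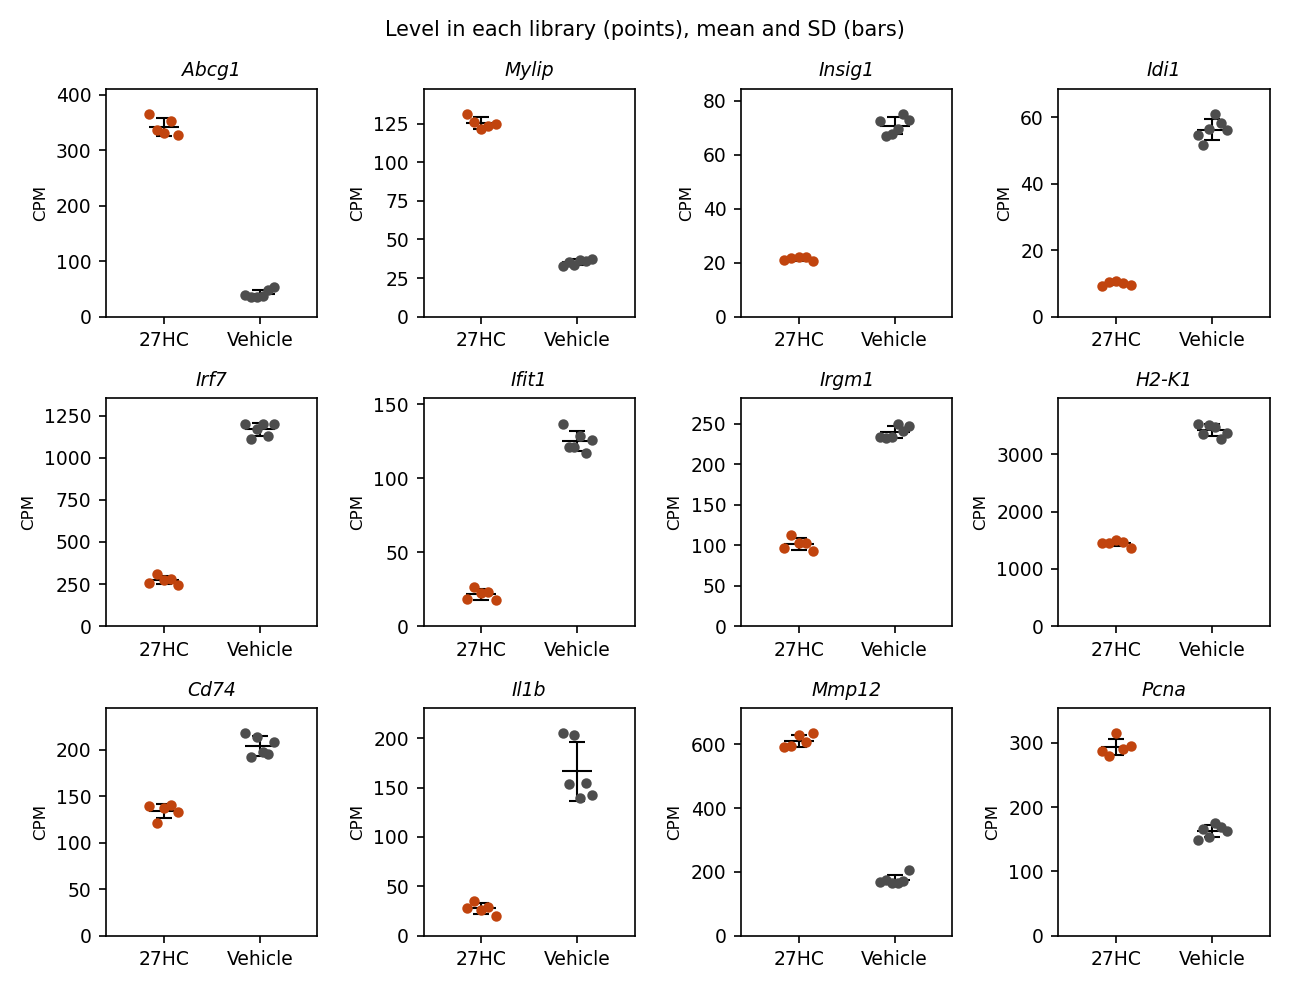
CPM of 12 genes in each library (points) with the mean and SD (bars), 5 27HC libraries left of 6 Vehicle libraries, on axes that start at 0. Abcg1, Mylip, Mmp12 and Pcna lie higher and Insig1, Idi1, Irf7, Ifit1, Irgm1, H2-K1, Cd74 and Il1b lower with 27HC, with no overlap in any of the 12.

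Some markers of other cells that bone marrow cultures can hold changed too, where 40.5% of all genes were called. Monocyte markers summed to 45.0 to 61.3 CPM with 27HC and 61.6 to 76.2 CPM with Vehicle, and 4 of 5 tested fell and 0 rose, with Ly6c2 (-3.32 ± 0.58) at 0 to 0.187 CPM in the 27HC libraries. Neutrophil markers summed to 47.5 to 57.1 CPM with 27HC and 72.6 to 89.5 CPM with Vehicle, with 3 of 13 tested, 1 higher (Mmp8) and 1 lower (Csf3r), while Ly6g and Elane were at 0 in all 11 libraries. Stromal markers summed to 3378 to 3824 CPM with 27HC and 4277 to 5058 CPM with Vehicle, and 5 of 8 fell and 1 rose, including Sparc (-0.37 ± 0.028) and Col1a1 (-0.39 ± 0.073). Dendritic cell markers summed to 277.3 to 325.6 CPM with 27HC and 596.4 to 652.8 CPM with Vehicle, but 1 of 5 fell (Bst2, also an antiviral gene) and 1 rose (Itgax). Lymphocyte markers summed to 11.6 to 15.5 CPM with 27HC and 21.6 to 25 CPM with Vehicle, where 2 of 5 fell (Cd4 and Cd79b) and Cd3e had 0 to 3 counts in each group. Of 7 osteoclast markers 3 rose and 4 fell, 0 of 3 mast cell markers were called, and 0 of 8 erythroid markers had counts enough to test. The part of these cells in the results on interferon, antigen presentation, inflammation, macrophage identity and matrix genes was not tested.

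DNA replication genes were higher with 27HC, with 19 of 28 called higher, 0 lower and a median of 0.52. Of 21 mitosis genes 6 rose, 0 fell and 15 were not called, with a median of 0.21. Their called share of 28.6% was below the 40.5% of all genes. Pcna, the sliding clamp of DNA polymerases, had 288, 280.2, 315, 291 and 294 CPM with 27HC and 149 (lowest), 165 (median) and 176 CPM (highest) with Vehicle. The groups did not overlap (0.85 ± 0.040). The helicase subunits Mcm6 (0.78 ± 0.038) and Mcm5 (0.92 ± 0.056) rose with it, whereas the proliferation marker Mki67 had a log2 fold change of -0.36 ± 0.19 (adjusted p = 0.137). TTTCCCGC, an E2F site, was in 3 of 22 promoter stretches of the replication group (13.6%) and in 1.99% of all.

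Among D cyclins, CDK inhibitors and growth factors 7 of 16 rose and 5 fell. Ccnd1, cyclin D1, had 284, 265, 282, 278 and 316 CPM with 27HC, against 120.1 (lowest), 142 (median) and 155 CPM (highest) with Vehicle, with no overlap (1.02 ± 0.044), and its partner kinase Cdk6 rose by 1.0 ± 0.078. Cdkn1a, the inhibitor p21, had 346, 341, 339.6, 346 and 345 CPM with 27HC and 428 (lowest), 442 (median) and 453 CPM (highest) with Vehicle. All its 27HC libraries lay below all Vehicle libraries (-0.36 ± 0.023). Cdkn1b (-0.33 ± 0.055) and Cdkn2a (-0.51 ± 0.097) fell as well, while the inhibitor Cdkn1c rose (1.19 ± 0.14). The D cyclins did not move together, since Ccnd3 was called lower and Ccnd2 was not called. Of 24 immediate early genes and MAP kinase phosphatases 11 rose and 4 fell, with Dusp4 at 1.66 ± 0.062, Jun at 0.60 ± 0.025 and Klf2 at -0.46 ± 0.062.

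The machinery of protein folding was slightly and widely higher. Of 20 chaperone and unfolded protein response genes of the endoplasmic reticulum 18 rose and 0 fell, with a median of 0.30. Hspa5, the chaperone BiP, had 1086, 1112, 1078, 1085 and 1034 CPM with 27HC and 739 (lowest), 764 (median) and 789 CPM (highest) with Vehicle. The lowest 27HC library lay above the highest Vehicle library (0.49 ± 0.022). Sdf2l1 (0.72 ± 0.035), Xbp1 (0.42 ± 0.022) and Pdia6 (0.37 ± 0.022) rose as well, and Herpud1 had a log2 fold change of -0.031 ± 0.044 (adjusted p = 0.614). The element shown for Pdia6, Dnajc3 and Calr was in 8 of the 17 promoter stretches of this group (47.1%), against 0.156% of all. A CCAAT box was in 16 of the 17 (94.1%), though the box was frequent in some other groups too, as given above.

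Of 16 genes of the ATF4 pathway 7 rose and 3 fell (Sesn2, Ddit3 and Nupr1), with Slc7a1 at 0.76 ± 0.050 and Ddit3 (CHOP) at -0.35 ± 0.054. Of 11 genes of serine and one-carbon synthesis 7 rose and 0 fell, with the smallest p for Mthfd2 (0.56 ± 0.034) and Psat1 (0.52 ± 0.046). Of 16 NRF2 targets 10 rose and 0 fell, with Hmox1, heme oxygenase 1, at 0.54 ± 0.023. Of 10 genes of metal handling 4 rose and 3 fell. Mt1, a metallothionein, had 56.6, 53.2, 59.8, 59.5 and 55.1 CPM with 27HC, against 35.0 (lowest), 37.5 (median) and 44.1 CPM (highest) with Vehicle, with no overlap (0.57 ± 0.043), and Slc40a1, the iron exporter ferroportin, changed by -0.10 ± 0.022. Glycolysis (8 of 19 higher, 5 lower) and the hypoxia response (5 of 12 higher, 4 lower) were split, with Hif1a at -0.69 ± 0.043 and Vegfa at 0.46 ± 0.052.

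Among 27 lysosomal genes 10 rose and 10 fell, but of 16 genes of the vacuolar proton pump, which acidifies lysosomes, 12 rose and 0 fell, with a median of 0.21 and Atp6v0d2 at 0.53 ± 0.043. Of 76 cytosolic ribosomal protein genes 69 rose and 0 fell, each by little, with a median of 0.19 and a highest value of 0.48. Of 13 mitochondrially encoded transcripts 9 rose and 0 fell, with a median of 0.33. Of 74 nuclear genes of the respiratory chain 20 rose and 5 fell, with a median of 0.05. Their called share of 33.8% was below the 40.5% of all genes.

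Beyond these groups, the genes with the smallest p included Txnip, which binds thioredoxin and limits glucose uptake, and Id2, an inhibitor of DNA-binding transcription factors. Txnip had 209, 209, 212, 209 and 209 CPM with 27HC, against 461 (lowest), 472 (median) and 483 CPM (highest) with Vehicle, and Id2 had 429.5, 442, 463, 445 and 416 CPM with 27HC, against 183 (lowest), 189 (median) and 202 CPM (highest) with Vehicle. The groups lay apart for both, at -1.17 ± 0.021 for Txnip (adjusted p = 8.47e-35) and 1.20 ± 0.029 for Id2 (adjusted p = 9.46e-31). Among the highest log2 fold changes were Nptx1 (1.76 ± 0.072), a pentraxin of neurons, Abcb4 (1.61 ± 0.071), a phospholipid transporter, and Jag1 (1.53 ± 0.060), a Notch ligand. Among the lowest were Slc13a3 (-2.99 ± 0.081), a carrier of dicarboxylates, and Fgl2 (-2.65 ± 0.055), a fibrinogen-like enzyme. Vipr1, a receptor of vasoactive intestinal peptide, was high at 2.81 ± 0.51, but its 27HC libraries ranged from 0.630 to 4.21 CPM.

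27HC was tested directly against GW3965, with 25.6% of genes called (13% higher and 12.5% lower with 27HC), and against E2, with 37.6% called (18.8% higher and 18.8% lower). The labels give no doses or times, so these are differences between the cultures as treated and not between compounds at matched doses. Sterol genes set 27HC apart from GW3965. Abcg1 was lower with 27HC than with GW3965, at a log2 difference of -1.51 (adjusted p = 1.01e-20), Scd2 at -3.01 (adjusted p = 1.16e-38) and Srebf1 at -2.19 (adjusted p = 2.54e-31). Of 14 fatty acid synthesis genes 13 were lower with 27HC than with GW3965 and 0 higher. The same held for 18 of 20 cholesterol synthesis enzymes (0 higher, median -0.95), including Idi1 at -1.88 (adjusted p = 8.09e-27) and Sqle at -1.64 (adjusted p = 1.65e-25). Against the Vehicle libraries that both share, Idi1 stood at -2.49 with 27HC and -0.61 with GW3965, Sqle at -1.95 with 27HC and -0.31 with GW3965, and Srebf1 at 0.19 with 27HC and 2.38 with GW3965.

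Interferon genes were higher with 27HC than with GW3965. Of the 40 antiviral effectors 35 were higher and 0 lower, with a median difference of 0.68, and of the 16 GTPases 14 were higher and 0 lower. Irf7 was higher with 27HC by 1.35 (adjusted p = 2.26e-25) and Il1b by 2.48 (adjusted p = 4.32e-13), while H2-K1 differed by -0.10 (adjusted p = 0.00505). All 40 antiviral effectors were called lower than Vehicle with 27HC and also with GW3965, where 44.4% of all genes were called and 21.5% were lower. Of 11 CC chemokines 8 were higher with 27HC than with GW3965 and 0 lower, and of 17 macrophage identity genes 13 were higher and 2 lower. DNA replication genes were higher in 20 of 28 and lower in 1, Pcna, at -0.46 (adjusted p = 3.58e-12). NRF2 targets were lower in 15 of 16 and ribosomal protein genes in 56 of 76.

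Against E2, 27HC differed much as it did against Vehicle. Of the 20 cholesterol synthesis enzymes 19 were lower with 27HC than with E2, and of the 40 antiviral effectors all 40, with a median of -1.0. E2 itself had 37 of these 40 called lower than Vehicle, against 2.62% of all genes, with a median of -0.35. Irf7 stood at -2.1 with 27HC and -0.55 with E2 against the shared Vehicle libraries. Of 11 class II genes 8 were lower with 27HC than with E2 and 0 higher. Against Vehicle, 27HC had 9 of the 11 lower and 0 higher, with a median of -0.61. E2 had 1 lower (2.62% of all genes) and 4 higher (2.27% of all), with a median of 0.13. Cd74 differed by -0.78 (adjusted p = 1.11e-20) and H2-Ab1 by -1.11 (adjusted p = 1.12e-23).

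**Figure D5:**
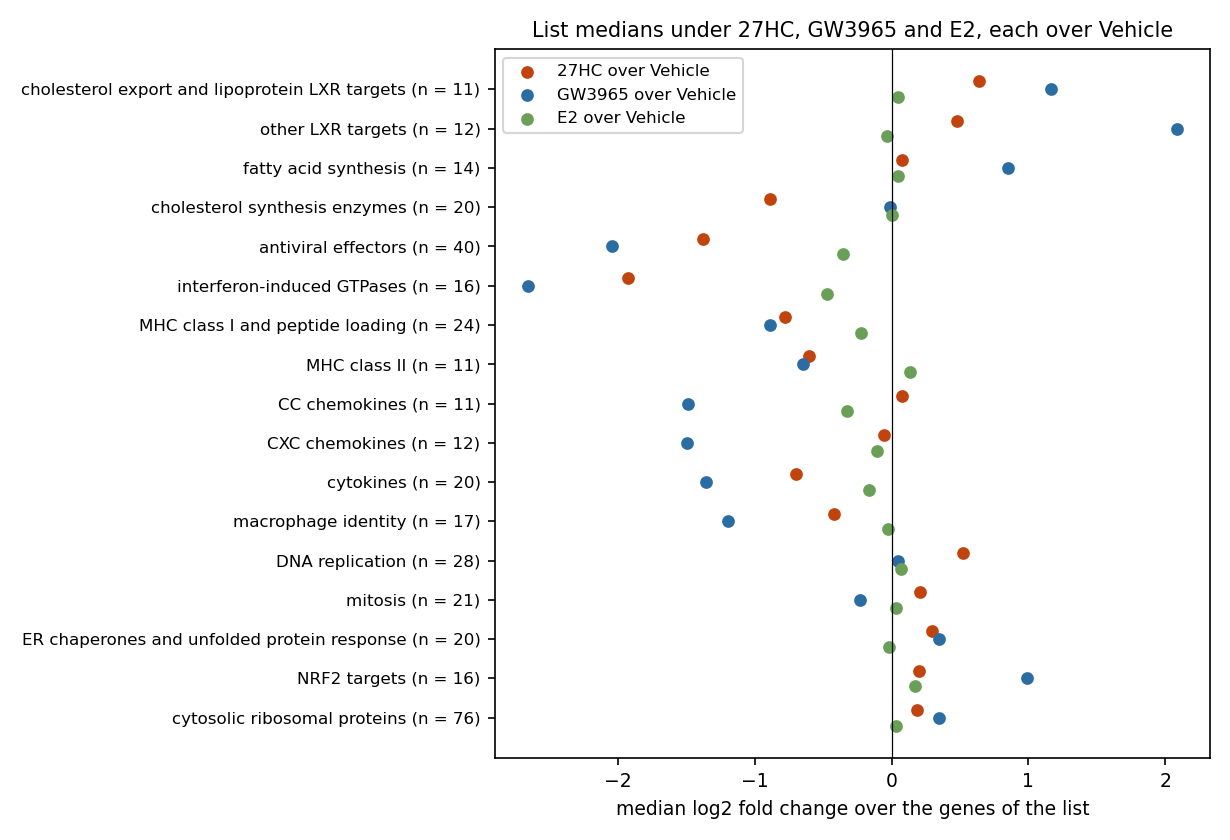
Median log2 fold change of the genes of each group with 27HC, GW3965 and E2, each over the same 6 Vehicle libraries. The antiviral median is -1.38 with 27HC, -2.04 with GW3965 and -0.35 with E2, and the cholesterol synthesis median is -0.89 with 27HC and near 0 with the other compounds. Of the 20 synthesis enzymes GW3965 had 7 lower and 4 higher than Vehicle, where 44.4% of all genes were called. E2 had 0 lower and 1 higher, where 4.88% were called.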

How the data were processed

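Per the labels' protocols, RNA was purified with Qiagen RNeasy Plus, polyadenylated RNA was made into stranded TruSeq libraries, and these were read on 3 NovaSeq lanes (single reads, 100 nt). The submitters' processing notes name bcl2fastq 2.20, kallisto 0.44.0 and GRCm38. The deposited values are estimated counts per gene, not normalized; whether transcript length was corrected for is not given in the sources used here. They were rounded, which moved no library total by more than 133 counts. GENCODE M21 gave symbols for 24279 of 24671 identifiers. Over the 25 pairs within the 27HC and Vehicle groups, chi-square divided by its degrees of freedom was 5.08 to 10.1, so no library was a copy of another.

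Genes kept by filterByExpr (13765) were scaled by TMM and fitted with edgeR 4.0.16 (R 4.3.3), robust quasi-likelihood, on 41 libraries of 8 groups with 33 residual degrees of freedom and a biological coefficient of variation of 7.5%; 5 libraries whose labels disagree on a compound were left out. Alternatives were the 11 libraries alone, RLE size factors, no filter, DESeq2 1.42.0, a replicate block, no mitochondrial transcripts and each library left out.

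The gene groups were chosen with earlier results of these data known, and some genes belong to several. Named genes are the receptors and main oxysterol genes, in each group up to 4 called members of smallest p, up to 5 called against its majority and up to 2 abundant ones not called, the 12 highest and 12 lowest called genes of at least 1 CPM without overlap, and 6 genes in no group. Adar, Aim2, Apoe, B2m, Cd274, Cd40, Cdk6, Cdkn1c, Ciita, Col1a1, Csf1r, Cxcl2, Fasn, Fcgr1, Gbp2, Gpnmb, Il1a, Irf3, Isg15, Lipa, Lss, Maf, Mki67, Mmp14, Ms4a7, Pdia6, Plaur, Ppbp, Psmb10, Psmb8, Psmb9, Rsad2, Tap1, Timp2, Tm7sf2 and Trem2 were chosen after their values were seen. Some genes that the rule names are not reported here, though they count in their groups. No set test was run. The precision of each value is limited by the number of libraries and by counting error at low counts.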

Additional observations from a re-analysis of the deposited data

Results flagged for a closer look

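Of 82 sets of libraries (39 genes, the total count and the mitochondrial share, in each treatment), 4 held a library that stood far from the others of its group by Dixon's test, where chance flags about 1 in 20. Mmp12 stood at 205 CPM in 1 Vehicle library, with the next at 176 and the lowest at 165 CPM, all far below the 27HC libraries. Timp3 stood at 188 CPM in 1 27HC library, with the next at 166 CPM, still below every Vehicle library. Mt1 stood at 44.1 CPM in 1 Vehicle library, with the next at 38.2 CPM, below every 27HC library. Txnip stood at 212 CPM in 1 27HC library while the other 4 lay near 209 CPM, a gap made visible by their small spread.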

How the results depend on the processing

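The counts of genes called higher, lower, at least 2-fold higher or lower, and against GW3965 or E2 stayed within 1.5 times their values under every alternative run. Of the 5578 calls, 5016 were shared with the fit of the 11 libraries alone (5197 called), 5507 with RLE size factors (5569), 5032 with no filter (5140), 5505 with DESeq2 (5614) and 5511 without mitochondrially encoded transcripts (5568), and every shared call kept its direction. Leaving out 1 library gave 5208 to 5436 calls, with 2626 to 2758 higher and 2580 to 2700 lower. The replicate numbers of the labels did not pair the libraries, since correlations of same-numbered libraries were all under 0.1; with a replicate block 5604 genes were called, 5312 of them shared. Of 384 named genes 369 to 380 kept their side of the threshold per alternative that held them all, and 0 reversed.

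With the 11 libraries alone the CXC chemokine median was 0.293 and that of mast cell and basophil markers 0.0928, both of opposite sign, and with the replicate block the lymphocyte median was -0.591. With 1 library left out, medians ran from 0.466 to 0.763 for export genes, -0.0742 to 0.0201 for sterol sensing, -0.0215 (without 27HC replicate 4) to 0.261 for oxysterol metabolism, 0.144 over all libraries, 0.0144 to 0.211 for scavenger receptors, -0.117 to -0.0386 for nuclear receptors, -1.4 to -1.29 for antiviral effectors, -0.0406 to 0.11 for CC chemokines (negative at -0.0406 and -0.0291 without Vehicle replicates 1 and 5), -0.1 to 0.0416 for CXC chemokines, 0.111 to 0.158 for the ATF4 pathway, -0.627 to -0.286 for lymphocyte and -0.621 to -0.432 for monocyte markers. With 50 bases after the start added, 4.06% of all promoters held the interferon element. The cause was not tested. Low counts limit Esr2, which had 0 to 6 counts per library, and markers of rare cells.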

Other observations

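Some genes of known function outside the groups also changed at least 2-fold, and were chosen after their values were seen. Pdgfb, a growth factor of mesenchymal cells, stood at 146 ± 11.1 CPM with 27HC and 55.6 ± 3.06 CPM with Vehicle (SD, n = 5 and n = 6), a log2 fold change of 1.39 ± 0.041. Kitl, stem cell factor, rose by 1.17 ± 0.081. Il7r, the interleukin 7 receptor, stood at 118 ± 4.59 CPM with 27HC and 50.8 ± 1.93 CPM with Vehicle (1.22 ± 0.032), and Cd38, an enzyme that consumes NAD, rose by 1.28 ± 0.11. Id1, a relative of Id2, rose by 1.31 ± 0.044, whereas another relative, Id3, changed by -0.27 ± 0.032. Uhrf1, which maintains DNA methylation in dividing cells, rose by 1.05 ± 0.087, and Cdca7 by 1.27 ± 0.11, beside the replication genes of the report.

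Among genes lower with 27HC, Ly6a, the surface protein Sca-1 that interferon raises, stood at 23.6 ± 3.12 CPM with 27HC and 90.5 ± 2.88 CPM with Vehicle (-1.94 ± 0.062). Sp100, of nuclear bodies, changed by -1.11 ± 0.045. Aif1, the cytoskeletal protein Iba1 used as a macrophage marker, stood at 83.0 ± 6.16 CPM with 27HC and 194 ± 12.7 CPM with Vehicle (-1.23 ± 0.050). Clec4a3, a lectin, changed by -1.35 ± 0.039, Pecam1, an adhesion protein, by -1.96 ± 0.11, Cebpd, a transcription factor, by -1.12 ± 0.049, and Nod2, a sensor of bacterial cell walls, by -1.31 ± 0.11. The libraries of the groups did not overlap for any of these.

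The deposited table holds 164 sets of rows with identical estimated counts (within 0.01), 329 rows in all, and 159 sets include a row without a symbol. Of these rows 139 were called, 70 of them beyond the first of a set, out of 5578 calls.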
